A study of Mus musculus with 4 samples.

Results

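The transcripts described here are 7 genes of late red cell maturation, taken by name from the annotated Ensembl identifiers: Bnip3l and Ulk1 of mitochondrial clearance, Ube2o and Ube2h of ubiquitin conjugation, Xpo7 of nuclear condensation, and the transcription factors Foxo3 and Mxi1. All 7 were found among 25509 gene rows, and all 7 were among the 13532 genes tested, each with at least 1003 counts in every library. RNA came from spleen cell suspensions of mice aged 8 weeks whose backs had been shaved and which received UVB at 100 mJ/cm2. The groups were wild type (2 libraries) and Trim21-/- (2 libraries, called knockout below), both UVB-exposed. The labels name an exposure of 1 or 3 weeks without saying which applies to these libraries, and do not say which exons the Trim21 allele lacks or how many mice gave each library. Unexposed spleens were not analysed here.

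A maturing erythroblast condenses and expels its nucleus, and the reticulocyte that remains removes its mitochondria, ribosomes and other organelles before it becomes a red cell. BNIP3L (NIX) sits in the outer mitochondrial membrane and recruits the autophagy machinery, which the kinase ULK1 starts. UBE2O and UBE2H are ubiquitin-conjugating enzymes induced in late erythroid cells, XPO7 is a nuclear transport receptor linked to chromatin condensation, FOXO3 drives antioxidant and late maturation genes, and MXI1 pairs with MAX to oppose MYC. In adult mice the spleen can make red cells alongside the bone marrow, mainly under demand.

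Library totals ran from 36173694 to 41924885 counts. Haemoglobin genes made up 8.25% and 4.03% of the counts in the wild-type libraries and 30.7% and 14.9% in the knockout libraries. Trim21 itself stood at 27.9 and 40.9 CPM in the wild-type libraries against 13.4 and 20.4 CPM in those labelled knockout, a log2 fold change of -1.02 ± 0.42 (edgeR adjusted p 0.17). Reads over all exons of Trim21 cannot test which exons the allele has lost. CPM here and below are counts scaled to each library's effective size by TMM. In each genotype library 1 had a male pattern (Xist counts of 2 and 1) and library 2 a female one (43526 and 12419 Xist counts, and 0 counts over 4 Y-linked genes). The libraries of 1 genotype thus came from different animals, the spread between them includes a difference in sex, and sex and library number cannot be told apart. B and T cell markers were counted in every library, as the label of spleen cells has it. Summed levels of 13 erythroid markers were 1474 and 2466 CPM in wild type against 16530 and 10476 CPM in knockout, with 7 of 13 passing as higher. Those of 10 neutrophil markers were 596 and 277 against 20003 and 19248 CPM, with 8 of 10 passing as higher. Those of 8 B cell markers were 5742 and 4920 against 3108 and 2477 CPM, and those of 9 T cell markers 1149 and 838 against 482 and 442 CPM, with 0 of each passing by edgeR (4 and 7 lower with an unadjusted p under 0.05). No marker in the count table was at 0 in every library. In bulk RNA a change in the number of cells of a type and a change in RNA per cell cannot be told apart.

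The comparison asks how these maturation transcripts differ between knockout and wild-type spleens after UVB. Mxi1 rose about 3.89-fold in the knockout. The other 6 genes had higher TMM-scaled levels in both knockout libraries than in either wild-type library but did not pass the test. The count of 1 gene of 7 passing as higher stands beside 5.9% of all tested genes, and 0 of 7 passed as lower, beside 0.392% of all tested genes. DESeq2's Wald test also called 0 of the 7 lower, where its share over the whole data was 7.13%. Before adjustment, edgeR's p fell below 0.05 in the downward direction for 0 of the 7, against a background share of 12.3%. With only 7 genes, counts of 0 beside such shares carry little weight. The median log2 fold change of the 7 was 1.34, and that of all tested genes was -0.06. In TMM-scaled CPM both knockout libraries lay above both wild-type libraries for 7 of 7 members, and for 30.3% of all tested genes. This separation rests on the TMM scaling for some members. Raw counts overlapped for Ulk1 (1284 and 2000 in wild type, 1326 and 2674 in knockout) and Ube2h (5122 and 6846, against 5526 and 7804). Foxo3 had a larger share of all counts in wild-type library 2 (4666 of 36173694) than in knockout library 1 (4692 of 38383781). An unadjusted p under 0.05 was reached by 5 of 7, and by 15.5% of all genes in the upward direction. The 7 genes were chosen with earlier results of these data known, so these shares describe them and do not test them as a set. Fold changes below are knockout over wild type on the log2 scale with their standard error (SE), and adjusted p are from edgeR's quasi-likelihood test with Benjamini-Hochberg adjustment over all genes.

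**Figure D1:**
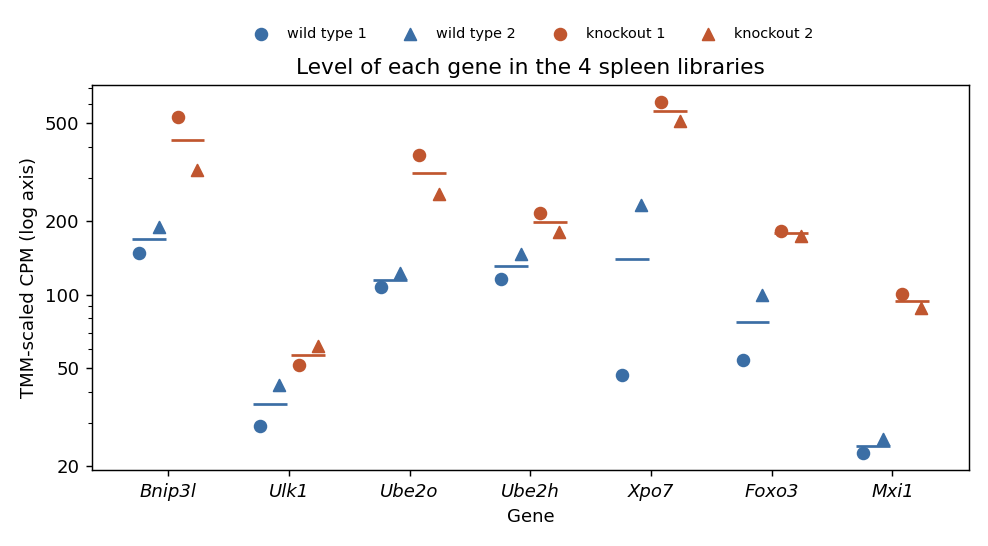
Level of the 7 genes in each library, as TMM-scaled CPM on a log axis; circles are libraries 1, triangles libraries 2, and horizontal lines are means of 2 libraries. In all 7 genes both knockout points lie above both wild-type points, with the narrowest gap in Ulk1 and Ube2h and the widest spread between wild-type libraries in Xpo7.

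Mxi1 (GRCm38 chromosome 19, 53310518 to 53375810, plus strand) encodes a MAX partner that represses genes MYC activates. Its raw counts were 1003 and 1206 (wild type) and 2576 and 3805 (knockout), or 22.6 and 25.8 CPM against 100 and 88.1 CPM. Its lowest knockout level was 3.41 times its highest wild-type level, and the libraries of each genotype lay close together. Mxi1 rose by 1.96 ± 0.37 (SE) on the log2 scale (adjusted p 0.0256 by edgeR). Over 14 alternative settings its log2 fold change ran from 1.43 to 2.38 and its adjusted p from 1.66e-09 to 0.172. The call was lost with knockout library 1 left out (edgeR adjusted p 0.172), with knockout library 2 left out (0.0614) and with library totals as the only scaling (0.0897). An annotated gene on the opposite strand, Gm10197, shares 194 exonic bases with Mxi1 and had 21 to 58 counts.

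For 4 of the 7 genes (Mxi1, Ube2h, Ulk1 and Foxo3) the RefSeq table of GRCm38.p6 holds a promoter; Bnip3l, Ube2o and Xpo7 did not match. Mxi1 has 3 windows there and Ube2h 2, and the one nearest the annotated gene start was taken. The 250 bases before the start are shown for Mxi1, the gene that passed, and Ube2h, the gene with the smallest difference, 5′ to 3′ on each gene's strand, with capitals marking the GC box GGGCGG or its reverse complement.
Mxi1, chr19:53310256-53310505, plus strand: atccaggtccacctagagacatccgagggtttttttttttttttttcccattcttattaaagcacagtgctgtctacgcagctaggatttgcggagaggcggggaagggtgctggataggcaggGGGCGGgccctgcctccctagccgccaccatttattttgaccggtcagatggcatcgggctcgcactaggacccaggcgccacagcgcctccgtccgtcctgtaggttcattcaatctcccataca
Ube2h, chr6:30304540-30304789, minus strand: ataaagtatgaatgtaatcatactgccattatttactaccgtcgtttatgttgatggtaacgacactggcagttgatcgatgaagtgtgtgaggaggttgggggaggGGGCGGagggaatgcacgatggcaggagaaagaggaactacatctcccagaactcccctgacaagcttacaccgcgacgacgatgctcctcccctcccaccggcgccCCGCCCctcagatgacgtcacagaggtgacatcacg
Mxi1 held 1 GC box in this window and Ube2h held 2, and 32.7% of 32851 windows of the same length in the table held at least 1. Searched on both strands, the GATA site (AGATAA or TGATAA, in 16.6% of windows), the E-box CACGTG bound by MAX dimers (6.02%), the forkhead site GTAAACA (3.17%) and the CACCC site CCACACCC (3.2%) were in neither window. The windows of Ulk1 and Foxo3, cut at the annotated gene start to 234 and 190 bases and so not comparable with those shares, also held the GC box and none of the other motifs. None of the searched motifs contains another, and a match or its lack describes only these letters in this window.

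Bnip3l (chromosome 14, 66985239 to 67008877, minus strand), the mitophagy receptor of reticulocytes, had 148 and 189 CPM in wild type and 531 and 323 CPM in knockout. Knockout library 1 was the highest and the groups did not overlap, but the knockout pair spread more than the wild-type pair. On the log2 scale the difference was 1.34 ± 0.46 (edgeR adjusted p 0.118). The value was 0.94 with knockout library 1 left out (adjusted p 0.817), 0.75 with library totals as the only scaling (0.384) and 1.53 with wild-type library 2 left out, where it passed (0.0482). Over the 14 alternatives it ran from 0.75 to 1.66 and passed in 4. Ulk1 (chromosome 5, 110784488 to 110810097, minus strand), the kinase that opens autophagy, had 29.0 and 42.8 CPM in wild type and 51.6 and 61.9 CPM in knockout. Here knockout library 2 was the highest, and the lowest knockout level was only 1.21 times the highest wild-type level. Its log2 fold change was 0.66 ± 0.39 (edgeR adjusted p 0.301), and it ranged from 0.16 with library totals as the only scaling to 1.12 with a correction for transcript length.

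Ube2o (chromosome 11, 116537740 to 116581447, minus strand) encodes a large enzyme that both conjugates and ligates ubiquitin and marks ribosomal proteins for removal in reticulocytes. It had 107 and 123 CPM in wild type and 370 and 256 CPM in knockout, so the lowest knockout level was 2.09 times the highest wild-type level. Its log2 fold change of 1.45 ± 0.41 had an edgeR adjusted p of 0.0808, or 0.0263 with wild-type library 2 left out. Over the 14 alternatives its value ran from 0.88 to 1.91 and its adjusted p from 7.31e-05 to 0.665, the latter with knockout library 1 left out, and it passed in 4. Ube2h (chromosome 6, 30211289 to 30304539, minus strand), the conjugating enzyme that works with the CTLH ubiquitin ligase, had 116 and 147 CPM in wild type and 215 and 181 CPM in knockout. The groups did not overlap, but the gap between them was 1.23-fold. The log2 fold change was 0.59 ± 0.38 (edgeR adjusted p 0.337), the smallest of the 7, and Ube2h passed under 0 of 14 alternatives; with library totals as the only scaling its value was 0.05.

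Xpo7 (chromosome 14, 70654246 to 70766628, minus strand), the nuclear transport receptor, had 47.2 and 232 CPM in wild type and 609 and 510 CPM in knockout. Wild-type library 2 was 4.92 times wild-type library 1, the widest gap between libraries of 1 genotype among the 7, whereas the knockout libraries lay close together. The fitted difference was 2.0 ± 0.73 on the log2 scale (edgeR adjusted p 0.135). With wild-type library 2 left out it was 3.57 with an adjusted p of 5.65e-06, and with wild-type library 1 left out it was 1.26 with an adjusted p of 0.115, so the size rests on which wild-type library is kept. Over the 14 alternatives the adjusted p of Xpo7 ran from 5.28e-10 to 0.246. Xpo7 shares 39 exonic bases with Npm2 on the same strand, which had 1 to 12 counts.

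Foxo3 (chromosome 10, 42181841 to 42276755, minus strand), the forkhead factor of oxidative stress resistance and late erythroid gene expression, had 54.2 and 99.9 CPM in wild type and 183 and 173 CPM in knockout. The knockout libraries lay close together, and wild-type library 2 was 1.84 times wild-type library 1. Knockout exceeded wild type by 1.21 ± 0.43 on the log2 scale (edgeR adjusted p 0.130), or 1.72 (0.00490) with wild-type library 2 left out and 0.82 (0.181) with wild-type library 1 left out. Over the 14 alternatives its value ran from 0.66 to 1.94 and its adjusted p from 2.91e-04 to 0.656, and it passed in 3. By library left out, 5 of the 7 genes passed as higher with wild-type library 2 left out (all but Ulk1 and Ube2h, beside 10.8% of all genes) and 1 with wild-type library 1 left out (Mxi1, beside 16.4%). None of the 7 passed with knockout library 1 left out (beside 4.23%), with knockout library 2 left out (beside 6.3%) or with library totals as the only scaling (beside 5.78%). By DESeq2's Wald test 4 passed as higher (Mxi1, Bnip3l, Ube2o and Xpo7, beside 12.1%).

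**Figure D2:**
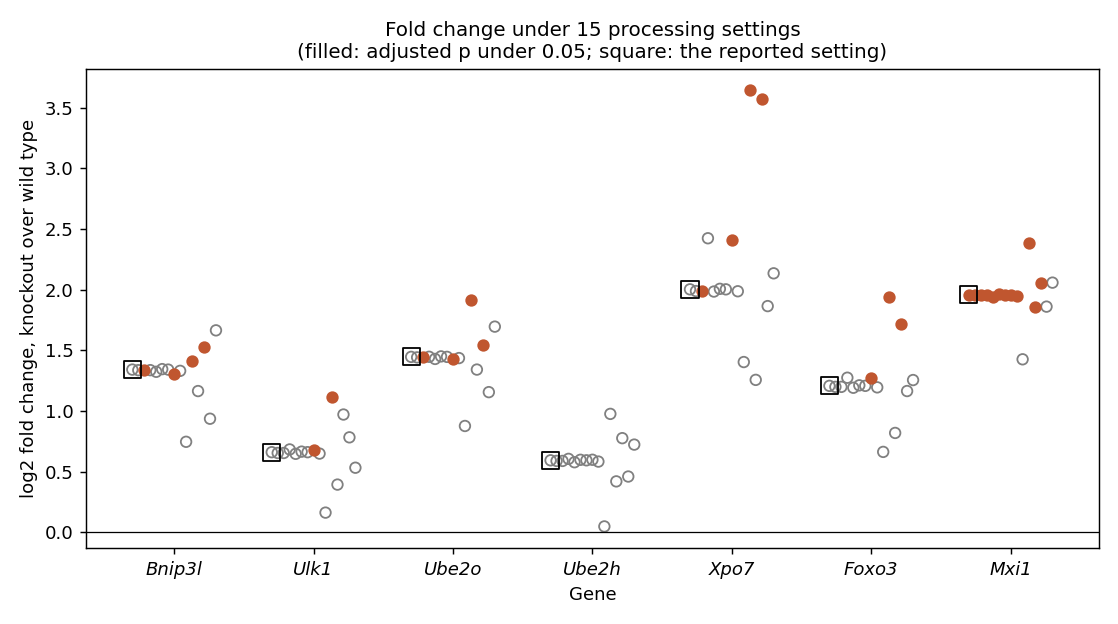
The log2 fold change (knockout over wild type) of the 7 genes under 15 settings, the reported one included as a square; filled points passed an adjusted p of 0.05. No point lies below 0, Mxi1 passed in most settings and Ube2h in none. The settings reuse all or part of the same 4 libraries.

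Within libraries 1, both of the male pattern, the log2 difference between knockout and wild type ran from 0.83 (Ulk1) to 3.69 (Xpo7), and within libraries 2, both of the female pattern, from 0.30 (Ube2h) to 1.77 (Mxi1). In TMM-scaled levels all 7 genes were higher in the knockout within both numbers, and all 7 differences were larger within libraries 1. The shares of all tested genes that did the same were not counted, so neither count shows anything particular to the 7. The stricter pattern, both knockout libraries above both wild-type libraries in TMM-scaled CPM, held for all 7 and for 30.3% of all tested genes. Mxi1 was the most even across the numbers for its size, at 2.14 and 1.77, while Xpo7 had 3.69 and 1.14. Over all tested genes the median difference was -0.04 and 0.01. With library number, and with it the sex pattern, as a term in the edgeR fit, 6 of the 7 genes passed as higher (all but Ube2h), beside 22.4% of all genes. That fit leaves fewer residual degrees of freedom than the 2 of the reported fit.

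Transcript length moved with these libraries. Among 904 genes whose longest transcript was at most 1000 bases, wild-type library 2 lay 0.99 below library 1 on the log2 scale (median -0.99), and among 1680 genes over 6000 bases it lay 1.04 above; the knockout pair went the same way (-0.71 and 0.53). The genotype difference followed length as well, with a median log2 fold change of 0.75 in the shortest class and -0.89 in the longest. The longest transcripts of the 7 genes ran from 3259 bases in Bnip3l to 15121 in Xpo7. Each gene lay above the median of its own length class, by 1.04 (Ube2h) to 2.89 (Xpo7). The medians of these classes ran from -0.15 to -0.89, so any gene with a positive log2 fold change lies above them. Both knockout libraries were above both wild-type libraries for 28.7% of genes in the class of 3001 to 4000 bases, which holds Bnip3l. The share was 20.4% in the class of 4001 to 6000 bases, which holds Ulk1, Ube2o, Ube2h and Mxi1. In the longest class, which holds Xpo7 and Foxo3, it was 11.8%.

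A fit with a length trend removed from each library, chosen after these trends were seen, passed 6 of the 7 genes as higher, beside 11.6% of all genes. By edgeR with this offset, Xpo7 was higher by 3.64 ± 0.47 and Mxi1 by 2.38 ± 0.31 (adjusted p 0.00333 each), Foxo3 by 1.94 ± 0.30 (0.00620) and Ube2o by 1.91 ± 0.37 (0.0141). Ulk1 was higher by 1.12 ± 0.26 (adjusted p 0.0271) and Bnip3l by 1.41 ± 0.36 (0.0374), while Ube2h, at 0.98 ± 0.30, had an adjusted p of 0.0640. The offset also takes out any difference between genotypes that runs with length.

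**Figure D3:**
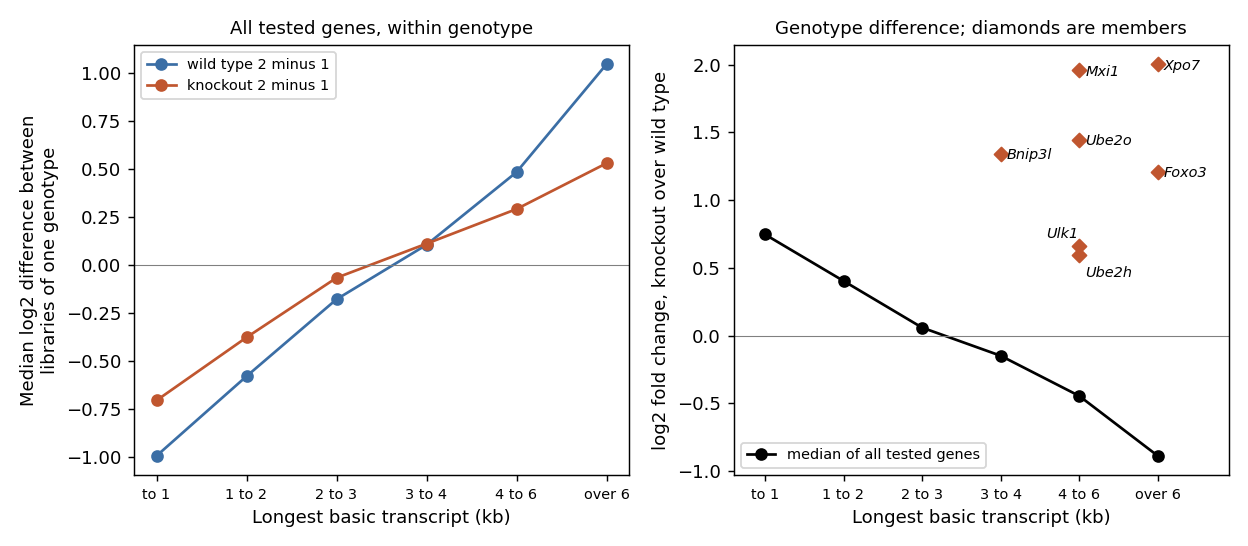
Left, the median log2 difference between the 2 libraries of each genotype over 6 classes of transcript length (kb); right, the median log2 fold change of all tested genes (line) and the 7 genes (diamonds) in the same classes. Long transcripts were lower in the knockout as a class (-0.89 over 6 kb), and all 7 diamonds lie above the line, which is negative in their classes.

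Per kilobase of exon the order of levels was not the same in the genotypes. In wild type Bnip3l led with 43.7 ± 7.45 CPM per kb (SD, n = 2), followed by Ube2h (27.4 ± 4.57), Ube2o (21.7 ± 2.02), Foxo3 (10.2 ± 4.27), Xpo7 (7.35 ± 6.88), Ulk1 (5.53 ± 1.51) and Mxi1 (3.55 ± 0.33). The libraries of Xpo7, at 2.48 and 12.2 CPM per kb, overlapped those of Foxo3 and spanned those of Ulk1 and Mxi1, so its place in that order is not resolved. In the knockout Bnip3l led again with 111 ± 38.1 CPM per kb, then Ube2o (59.2 ± 15.2), Ube2h (41.4 ± 5.10), Xpo7 (29.4 ± 3.65), Foxo3 (23.5 ± 0.89), Mxi1 (13.8 ± 1.26) and Ulk1 (8.75 ± 1.12), and the libraries of neighbouring genes did not overlap. Measured per length of the longest transcript, both orders of means were the same. By that measure the knockout libraries of Ube2h (46.2 and 38.8 CPM per kb) and Xpo7 (40.2 and 33.8) overlapped, so their order is not resolved.

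Levels were also set relative to erythroid markers. The log2 level of each gene minus the mean log2 level of 13 erythroid markers (such as Klf1 and Slc4a1) was lower in both knockout libraries than in both wild-type libraries for all 7, as it was for 96.5% of all tested genes, so this count shows nothing particular to the 7. The median difference was -3.76 over all tested genes. Among the 7 the difference was smallest for Xpo7 (1.12 and 1.56 in wild type, -0.13 and 0.15 in knockout, a difference of -1.33). It was -1.80 for Mxi1, -2.31 for Ube2o, -2.43 for Bnip3l, -2.47 for Foxo3, -3.06 for Ulk1 and -3.14 for Ube2h. Each had an exact two-sided permutation p of 0.333, the smallest that 2 against 2 libraries allow, so no difference of this kind can pass. Of the 13 markers 7 passed as higher, with a median log2 fold change of 3.61, above that of each of the 7 genes.

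**Figure D4:**
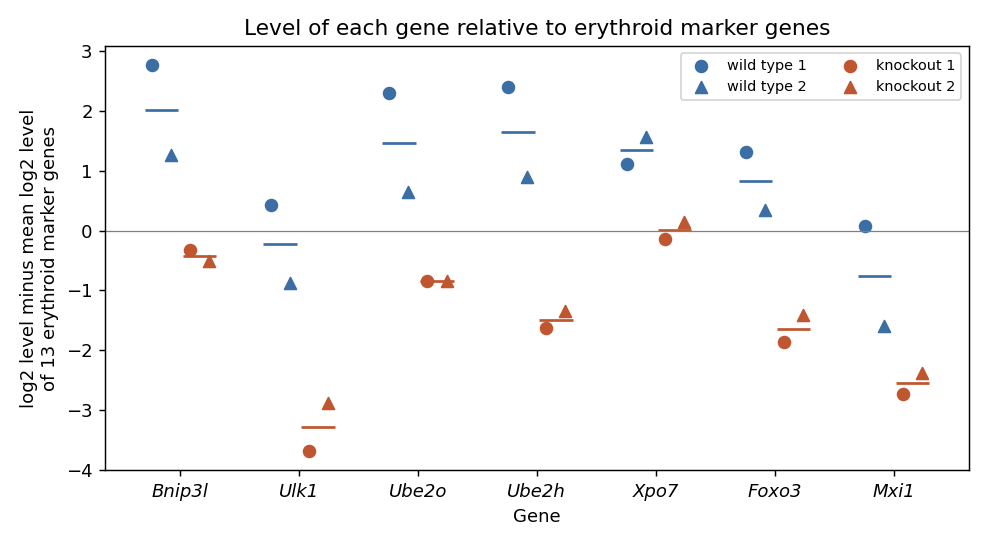
The log2 level of each gene minus the mean log2 level of 13 erythroid markers, by library, with lines at the mean of 2 libraries. Knockout points lie below wild-type points in all 7 genes, as for 96.5% of all tested genes, and Xpo7 has the smallest shift (-1.33).

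The counts that follow for related gene lists stand beside 5.9% of all tested genes called higher and 0.392% called lower. These lists too were chosen with earlier results known, so the shares are description only. For counts with 1 library left out, the shares of all genes called higher and lower were 16.4% and 14.6% (wild-type library 1), 10.8% and 4.24% (wild-type library 2), 4.23% and 0.211% (knockout library 1) and 6.3% and 1.61% (knockout library 2).

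Among mitophagy receptors and regulators, 1 of 14 tested genes rose and 0 fell (median log2 fold change 0.25). Optn, the ubiquitin-binding adaptor optineurin, had 9.14 and 19.9 CPM in wild type and 64.7 and 60.1 CPM in knockout (2.10 ± 0.48, edgeR adjusted p 0.0457). That call was lost with knockout library 1 left out (adjusted p 0.102), while the list had 3 calls with wild-type library 1 left out and 2 with wild-type library 2 left out. Bnip3, the close relative of Bnip3l, was low throughout, with 7.38 and 4.49 CPM in wild type and 7.32 and 6.27 CPM in knockout, and its log2 fold change of 0.19 had a negative value with library totals as the only scaling (-0.31), with the length offset (-0.11) and with wild-type library 2 left out (-0.12).

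Among autophagy initiation genes, 1 of 19 rose and 0 fell (median -0.37), and among the genes that attach LC3 and GABARAP proteins to membranes, 1 of 15 rose and 0 fell (median 0.96). Wipi1, a phosphoinositide-binding protein of forming autophagosomes, had 4.02 and 6.06 CPM in wild type and 59.7 and 40.1 CPM in knockout, a rise of 3.31 ± 0.46 on the log2 scale (edgeR adjusted p 0.0120) that passed in 14 of 14 alternatives. Gabarapl1, which encodes one of the lipidated proteins, rose by 1.73 ± 0.39 (edgeR adjusted p 0.0460), with adjusted p of 0.425 and 0.0872 with knockout library 1 or 2 left out. Ulk2, the relative of Ulk1, had a negative value of -0.96 ± 0.45 (edgeR adjusted p 0.212), with 21.7 and 42.5 CPM in wild type and 14.6 and 18.3 CPM in knockout, and an adjusted p of 0.0115 with wild-type library 1 left out. Ulk1 and Ulk2 thus had fitted values of opposite sign, a difference that was not tested. The conjugation list had 8 higher calls with wild-type library 1 left out, 3 with wild-type library 2 left out and 2 with knockout library 2 left out. The initiation list had 4 higher and 4 lower calls with wild-type library 1 left out, and 2 higher with wild-type library 2 left out.

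Of 31 other ubiquitin-conjugating enzymes, 4 rose and 0 fell (median 0.51). Ube2c and Ube2s, partners of the anaphase-promoting complex, rose by 4.13 ± 0.49 and 2.94 ± 0.59, Ube2t of DNA crosslink repair by 1.95 ± 0.41 and Ube2e3 by 1.84 ± 0.39 on the log2 scale, with edgeR adjusted p of 0.0114 to 0.0386. With knockout library 1 left out only Ube2c still passed, the adjusted p of Ube2s, Ube2t and Ube2e3 being 0.0512, 0.228 and 0.369. With knockout library 2 left out those of Ube2t and Ube2e3 were 0.0652 and 0.0572. The list had 10 higher calls with wild-type library 1 left out.

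The CTLH ligase, which UBE2H serves, had 1 of 11 subunits and partners rise and 0 fall (median 0.21). Gid8, a scaffold subunit, had 50.9 and 43.1 CPM in wild type and 202 and 127 CPM in knockout (1.81 ± 0.41, edgeR adjusted p 0.0463), with adjusted p of 0.449 and 0.0576 with knockout library 1 or 2 left out. The RING subunit Maea had 58.0 and 38.2 CPM in wild type and 61.3 and 57.0 CPM in knockout, a log2 fold change of 0.30 ± 0.39 that was -0.20 with library totals as the only scaling. Wdr26, a substrate adaptor, had 106 and 254 CPM against 254 and 266 CPM (0.53 ± 0.50, edgeR adjusted p 0.511, or -0.01 with library totals as the only scaling), so that wild-type library 2 equalled the knockout level. With wild-type library 2 left out the count for this list was 3 and with wild-type library 1 left out it was 2.

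Of 13 other genes of late red cell remodelling, 13 had positive values, 6 rose and 0 fell, with a median of 2.04. The share of all tested genes with a positive value was not counted, and their median was -0.06. Tspan33, a tetraspanin of erythroid precursors, had 26.5 and 46.8 CPM in wild type and 813 and 426 CPM in knockout (4.08 ± 0.59, edgeR adjusted p 0.0128). E2f2, a cell cycle factor of erythroblasts, rose by 2.47 ± 0.46, the ubiquitin ligase subunit Fbxo7 by 2.04 ± 0.41 and the pseudokinase Stradb by 2.09 ± 0.42, with edgeR adjusted p of 0.0240 to 0.0311. With knockout library 1 left out the adjusted p of E2f2, Fbxo7 and Stradb were 0.0959, 0.276 and 0.220. The lipoxygenase gene Alox15, named after its values were seen because it acts on organelle membranes of reticulocytes, had a wild-type mean of 8.63 ± 5.58 CPM and a knockout mean of 13.9 ± 3.07 CPM (SD, n = 2), groups that overlap (0.68 ± 0.53, edgeR adjusted p 0.424).

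Of 19 genes of nuclear condensation and enucleation, 2 rose and 0 fell (median 0.71). Lmna, which encodes the A-type lamins of the nuclear envelope, had 17.7 and 17.6 CPM in wild type and 384 and 199 CPM in knockout, a rise of 4.05 ± 0.49 (edgeR adjusted p 0.0114) that passed in 14 of 14 alternatives. Lmnb1, a B-type lamin, rose by 1.74 ± 0.37 (edgeR adjusted p 0.0388), with adjusted p of 0.190 and 0.175 with knockout library 1 or 2 left out. With wild-type library 1 or 2 left out the list had 7 higher calls, and with knockout library 1 or 2 left out it had 3. Of 28 exportins, importins and Ran cycle genes, 2 rose and 0 fell (median 0.00). These were the importin Kpna2 (2.26 ± 0.38) and the Ran exchange factor Rcc1 (1.88 ± 0.39), with edgeR adjusted p of 0.0181 and 0.0352, or 0.0785 and 0.267 with knockout library 1 left out and, for Rcc1, 0.0640 with knockout library 2 left out. With wild-type library 1 left out this list had 7 higher and 4 lower calls. Ranbp17, the closest relative of Xpo7, was at low levels, with 0.38 and 0.28 CPM in wild type and 1.60 and 1.64 CPM in knockout (2.28 ± 0.63, edgeR adjusted p 0.0765, or 0.0375 with wild-type library 1 left out).

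Among FOXO factors and known FOXO target genes, 1 of 17 rose and 1 fell (median -0.30). Gadd45a, a stress-response gene, rose by 2.97 ± 0.44 (edgeR adjusted p 0.0140), and Sesn3, which encodes a sestrin, fell by 2.43 ± 0.55 on the log2 scale (edgeR adjusted p 0.0468), with adjusted p of 0.139 and 0.0528 with knockout library 1 or 2 left out. The other FOXO factors did not pass. Foxo1, abundant in lymphocytes, had 113 and 197 CPM in wild type and 32.5 and 49.6 CPM in knockout (-1.92 ± 0.45, edgeR adjusted p 0.0527), and it was called lower with wild-type library 1 or 2 left out (adjusted p 1.91e-04 and 0.00490). Foxo4 had a wild-type mean of 37.8 ± 5.35 CPM and a knockout mean of 56.1 ± 6.40 CPM (SD, n = 2), and the groups did not overlap (0.57 ± 0.37, edgeR adjusted p 0.340). In TMM-scaled CPM both knockout libraries lay above both wild-type libraries for Foxo3 and below them for Foxo1. B and T cell marker sums were also lower in the knockout, and the part of these cells in the values was not tested. Lower calls numbered 6 with wild-type library 1 left out and 2 with wild-type library 2 left out.

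In the network of MYC, MAX and the MXD repressors to which Mxi1 belongs, 2 of 12 genes rose and 0 fell (median -0.24). Mxd3, an MXD factor of proliferating cells, had 5.71 and 4.88 CPM in wild type and 105 and 49.7 CPM in knockout (3.87 ± 0.51, edgeR adjusted p 0.0115), and passed in 14 of 14 alternatives. Mxd1, a MAD factor of differentiating blood cells, had 53.0 and 66.6 CPM against 211 and 226 CPM (1.87 ± 0.38, edgeR adjusted p 0.0326), with adjusted p of 0.150 and 0.120 with knockout library 1 or 2 left out. Mxd4 had 90.5 and 85.5 CPM in wild type and 41.4 and 41.6 CPM in knockout (-1.08 ± 0.36, edgeR adjusted p 0.112, or 0.0423 with wild-type library 2 left out). Max and Myc did not pass, with log2 fold changes of 0.36 ± 0.36 and 0.02 ± 0.37 (edgeR adjusted p 0.536 and 0.981), and both had negative values with library totals as the only scaling (-0.14 and -0.45). The sums of neutrophil and erythroid markers were higher in the knockout beside these values, and their part was not tested. Lower calls in this list numbered 2 with wild-type library 1 left out, 2 with wild-type library 2 left out and 1 with knockout library 2 left out.

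**Figure D5:**
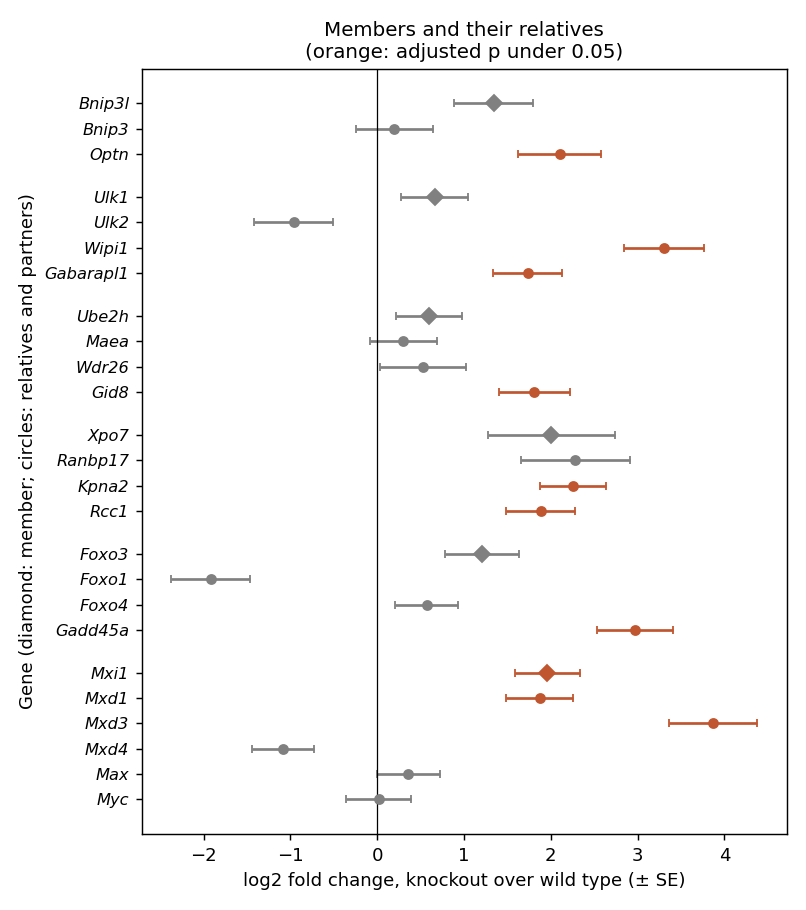
The log2 fold change (knockout over wild type) with its SE for 6 of the 7 genes (diamonds) and relatives or partners of each (circles), orange where the adjusted p was under 0.05. Ulk2, Foxo1 and Mxd4 lie below 0 while Ulk1, Foxo3 and Mxi1 lie above it.

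Profiles over the 4 libraries were compared by the root mean square difference of log2 levels centred on each gene's mean, among 8824 other protein-coding genes, with 4 libraries as the only points. Closest to Mxi1 were Pabpc4, St3gal2 and Cchcr1 (0.05 to 0.06, against a median of 1.03 over all candidates). Here and below the genes named were picked for the smallest differences. Their place below the median, and any likeness in single libraries, follows from that choice. Xpo7 was closest to Diaph3, Ncapg2 and Fbxo30 (0.09 to 0.16, median 1.5), which shared its low value in wild-type library 1: Diaph3 had 3.0 and 12.9 CPM in wild type and 38.9 and 33.3 CPM in knockout. Foxo3 was closest to Orc2, Epb41 and Ppp1cb, Bnip3l to Kctd14, Tpm1 and Parp16, and Ube2o to Hspbap1, Zmynd19 and Eid1. Ulk1 was closest to Taf5, Msh6 and Fbxo45, and Ube2h to Serinc3, Foxo4 and Hbs1l. Among the 7 themselves, Bnip3l and Ube2o were the closest pair (0.11), Ulk1 and Ube2h the next (0.20), and Ube2h and Xpo7 the farthest apart (1.14).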

How the data were processed

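The authors deposited 1 table of RSEM expected counts per Ensembl gene for 4 libraries, already whole numbers when deposited. Per the submitters' processing notes, STAR 2.5.0, RSEM 1.2.25, SAMtools 1.18 and GRCm38 were used; no annotation release or strand setting is given in the sources used here, so overlapping and antisense genes are uncertain. Another 92 rows without a gene identifier held 0 counts and were left out. Of 25509 gene rows, 25251 matched GENCODE M21 (GRCm38). Groups and replicate numbers came from sample titles. Members and gene lists were chosen with earlier results of these data known. edgeR 4.0.16 (R 4.3.3) was used with TMM scaling, filterByExpr, robust quasi-likelihood fits without covariates (2 residual degrees of freedom) and Benjamini-Hochberg adjustment over 13532 genes; a gene passed at an adjusted p under 0.05. DESeq2 1.42.0 and limma-voom (limma 3.58.1) were alternatives. On simulated data with 13351 genes, edgeR recovered 53% of changes of log2 size 2 and 98% of those of log2 size 3. Smaller sizes, such as those fitted for Ube2o (1.45) and Ube2h (0.59), were not simulated, so the share recovered at them is not known. The simulated noise was independent between genes and libraries. It held neither the length trend nor the shared deviations of same-numbered libraries, so these shares may not hold for the real libraries. Centred profiles used log2 CPM with a prior count of 2, and levels relative to markers a pseudocount of 0.5 CPM. Named genes were the 7, Trim21, Bnip3, Ulk2, Ranbp17, Foxo1, Foxo4, Maea, Wdr26, Max, Mxd1, Mxd4 and Myc, up to 5 passing genes of each list and direction (the 4 with the smallest p where more passed), and the 3 nearest profiles with an average log2 CPM of at least 3. Libraries of 1 genotype differed by more than sampling noise (chi-square per degree of freedom 407 and 299). Intervals and SE cover these 4 libraries only, and the deposited counts carry no molecular identifiers.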

Additional observations from a re-analysis of the deposited data

How the results depend on the processing

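All 7 genes kept a positive log2 fold change under the 14 alternatives. These settings reuse all or part of the same 4 libraries, and the share of all tested genes that kept a positive value was not counted. Counts that moved by over 1.5 times follow, as genes passing higher unless called lower. DESeq2's Wald test gave 4 of the 7 genes, 2 autophagy initiation, 6 conjugation, 7 E2 enzymes (and 1 lower), 3 CTLH, 10 late red cell, 6 nuclear condensation, 6 transport, 3 FOXO lower and 2 MYC network lower, and 1569 higher and 928 lower of all genes. Library totals as the only scaling, which moved the median of all genes from -0.06 to -0.56, gave 0 of the 7 genes, 0 mitophagy, 0 conjugation, 2 E2 (and 1 lower), 0 CTLH, 1 transport (and 1 lower), 6 FOXO lower, 1 MYC network (and 2 lower) and 1376 of all genes lower, beside 782 higher. The length offset gave 6 of the 7 genes, 2 mitophagy, 3 initiation, 4 conjugation, 7 E2, 5 CTLH, 6 condensation, 5 transport, 2 FOXO (and 4 lower), 1 MYC network lower, and 1562 higher and 573 lower of all genes. With no filter the counts were 2 initiation, 3 conjugation, 3 CTLH, 5 condensation, 2 FOXO lower, 1 MYC network lower, and 1278 higher and 490 lower of all genes. DESeq2 size factors gave 0 mitophagy, 0 conjugation, 0 CTLH and 0 FOXO lower; leaving out haemoglobin and mitochondrial genes gave 0 mitophagy; limma-voom and the stricter filter gave 2 conjugation each. The causes of these moves were not tested.

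With 1 library left out, the single remaining library of a genotype is taken to vary as the pair of the other does. The counts then ran from 0 to 5 for the 7 genes, 0 to 3 mitophagy, 1 to 4 initiation (0 to 4 lower), 0 to 8 conjugation, 1 to 10 E2 (0 to 1 lower), 0 to 3 CTLH, 4 to 9 late red cell, 3 to 7 condensation (0 to 1 lower), 0 to 7 transport (0 to 4 lower), 1 FOXO (0 to 6 lower), 1 to 2 MYC network (0 to 2 lower), and 601 to 2300 higher and 30 to 2047 lower of all genes. Common dispersion was 0.087 without either wild-type library and 0.20 without either knockout library.

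Same-numbered libraries deviated together (correlation 0.51 across genes), and share a sex pattern. The labels do not say that a number marks a shared animal, litter, batch or day. A fit with this number as a block leaves fewer residual degrees of freedom than the reported fit. With the replicate block, 6 of the 7 genes passed (all but Ube2h, adjusted p 0.112), beside 22.4% of all genes, with 4 mitophagy (1 lower), 6 initiation (4 lower), 8 conjugation, 14 E2 (2 lower), 3 CTLH, 13 late red cell, 10 condensation (1 lower), 7 transport (4 lower), 3 FOXO (8 lower), 4 MYC network lower, and 3036 higher and 2669 lower of all genes.

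Values that changed sign, with none passing, were Bnip3 (-0.31 with library totals, -0.11 with the length offset, and -0.12 to 0.58 with 1 library left out), Maea (-0.20), Wdr26 (-0.011) and Max (-0.14) with library totals, and Myc (-0.45 with library totals, -0.12 with the length offset, -0.03 with wild-type library 2 left out and -0.19 with knockout library 2 left out). Levels relative to erythroid markers moved by less than 1 SD with a pseudocount of 0.1 or 2 CPM and without haemoglobin and mitochondrial genes.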
